A study of Homo sapiens with 6 samples.

Results

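Arginine methyltransferases (PRMTs) move methyl groups from S-adenosylmethionine onto arginine residues of histones, splicing factors and other RNA-binding proteins. PRMT5 makes symmetric dimethylarginine and works in a complex with the WD-repeat protein WDR77, also called MEP50, while CLNS1A, RIOK1 and COPRS are adaptors that bring it different substrates. With CLNS1A the complex is the methylosome, which methylates Sm proteins before the SMN complex assembles them onto small nuclear RNAs. Cyclin D1 with CDK4 is known to phosphorylate WDR77 and so raise PRMT5 activity, which links this group to the kinases targeted here. The genes described are PRMT1, PRMT3, CARM1, PRMT5, PRMT6, PRMT7, WDR77, CLNS1A, RIOK1 and COPRS, 10 of the 19775 genes measured. They were taken by gene symbol from the platform annotation, which gave 15 probe sets, and where a gene had several, the one brightest on average was kept. Probe sets were thus chosen by their mean level, and the group was put together with the rise of WDR77 already known, so the count of its members that rose is a description and nothing is read from it.

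The CDK4/6 siRNA group was HCT116, a human epithelial line from a colorectal carcinoma, transfected with a SMARTpool of siRNAs against CDK4 together with a Silencer Select siRNA against CDK6, each at 30 nM, and the control group was the same line transfected with a non-targeting pool and a Silencer Select negative control siRNA, also 30 nM each. All cells received Lipofectamine RNAiMAX and were harvested 96 h after transfection, with 3 Affymetrix arrays per group labelled as biological replicates. Nothing in the labels tells whether the replicates were separate cultures, and p-values here cover the spread from array to array, which may be technical. Each kinase was targeted by a single product, a pool for CDK4. Levels are given as log2 values from RMA, and each log2 fold change is the CDK4/6 siRNA mean minus the control siRNA mean.

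Across the series, array medians lay between 5.36 and 5.39, and arrays correlated across genes at 0.998 inside a group and at 0.991 to 0.994 from one group to the other. The epithelial markers EPCAM, CDH1, KRT8, KRT18, KRT19 and CLDN4 had mean levels of 9.50 to 13.3, and 2 of these 6 were higher and 2 lower. The 3 leukocyte, 4 fibroblast and 4 endothelial markers measured had mean levels of at most 6.26, and 0 of these 11 passed limma's test, nor did any at an unadjusted p under 0.05. CDK6 was at 34.0% and CDK4 at 62.2% of the control level. MYC, named in the series title, changed by 0.42 and cyclin D1 (CCND1) by 0.93. Limma called 14.0% of all genes higher and 12.9% lower at an adjusted p under 0.05. In 20.6% of genes every CDK4/6 siRNA array was above every control array, and in 20.3% below. The hybridisation spike-ins, control RNAs added to the hybridisation mix, averaged 10.15 in CDK4/6 siRNA arrays and 10.25 in control arrays, a difference of -0.11 (two-sided exact permutation p = 0.1, the lowest that 3 against 3 arrays can give). Scaling the arrays to them moved the median of all genes to 0.11, so every change given here is relative to the typical gene after RMA. In bulk RNA, fewer cells that express a gene and less of its RNA per cell cannot be told apart.

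The sequences before the transcription starts of WDR77, the member with the largest change, and PRMT5, its catalytic partner, are shown as a description. Whether either sequence bears on the change of its gene was not tested. WDR77 lies head to head with ATP5PB, a subunit of mitochondrial ATP synthase, and 207 bases separate their RefSeq starts on assembly GRCh38.p14, at chr1:111449257-111449463. The stretch is given 5′ to 3′ on the minus strand, toward WDR77, with capitals marking the palindrome TCTCGCGAGA. The 250 bases before the PRMT5 start, at chr14:22929377-22929626 on the minus strand, follow with capitals marking CCAAT on either strand.
WDR77: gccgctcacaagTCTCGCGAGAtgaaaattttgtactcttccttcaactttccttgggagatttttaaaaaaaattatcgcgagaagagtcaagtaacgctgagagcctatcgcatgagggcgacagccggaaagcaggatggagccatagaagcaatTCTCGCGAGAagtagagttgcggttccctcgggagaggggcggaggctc
PRMT5: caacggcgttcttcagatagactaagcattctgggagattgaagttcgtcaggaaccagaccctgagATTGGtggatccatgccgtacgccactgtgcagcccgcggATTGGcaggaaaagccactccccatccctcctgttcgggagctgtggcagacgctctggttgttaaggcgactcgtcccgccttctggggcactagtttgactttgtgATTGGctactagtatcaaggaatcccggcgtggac

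In windows of 300 bases, 250 before and 50 from the RefSeq start, both strands were searched in all 10 members and in 15843 protein-coding genes. TCTCGCGAGA, a palindrome chosen after the WDR77 sequence was seen, was found in WDR77 alone among the members and in 0.669% of all windows. CCAAT was found in PRMT5 and PRMT1 and in 36.4% of all windows. The E-box CACGTG, the sequence that MYC with MAX is known to bind, was found in 2 members, WDR77 and PRMT3, and in 8.88% of all windows. The E2F sequences TTTGGCGC and TTTCCCGC were found in 0 members and in 3.06% of all windows. The WDR77 E-box starts at base 11 of the transcript, at chr1:111449231-111449256 on the minus strand with its flanks, and the PRMT3 one 187 bases before the start, at chr11:20387519-20387544 on the plus strand. Both are shown because they are the matches to the motif of the factor named in the series title, with the E-box in capitals.
WDR77: agaggtgcacCACGTGgggtttgctg
PRMT3: gcccccacctCACGTGacccgcacgg

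PRMT5, WDR77, CLNS1A, RIOK1 and COPRS were each higher in CDK4/6 siRNA cells, by different amounts. WDR77 was 2.59-fold higher, and PRMT5 itself 1.24-fold. WDR77 gave 9.11, 9.16 and 9.25 in the CDK4/6 siRNA arrays, against 8.04, 7.86 and 7.50 in the control arrays. The groups were more than a log2 unit apart at their nearest arrays, and control replicate 3 was the lowest. The log2 fold change was 1.38 (SE 0.121, 95% interval 1.10 to 1.65, limma adjusted p = 0.000115 over all genes). Without control replicate 3 it was 1.23, the lowest value with 1 array left out. The second WDR77 probe set had 8.75, 8.75 and 8.83 in CDK4/6 siRNA arrays and 7.78, 7.74 and 7.24 in control arrays. It rose by 1.19, with the same control array lowest.

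PRMT5, the enzyme, gave 10.69, 10.64 and 10.69 in CDK4/6 siRNA arrays and 10.38, 10.40 and 10.33 in control arrays. The arrays of a group were close together and the groups did not overlap. The log2 fold change was 0.31 (SE 0.053, limma adjusted p = 0.00277). Its other 2 probe sets rose by 0.27 and 0.22, with limma adjusted p of 0.0391 and 0.0488 over all probe sets. Both lost the call with the replicate number as a block (adjusted p = 0.0654 and 0.0899) and in 4 and 6 of the 6 fits with 1 array left out. The 1 probe set annotated to PRMT5-AS1, a transcript named as antisense to PRMT5, was dim, at means of 4.45 in CDK4/6 siRNA and 4.44 in control arrays.

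The 3 adaptors rose by 0.30 to 0.42 on the log2 scale. CLNS1A, which presents Sm proteins to the enzyme, gave 11.55, 11.54 and 11.61 in CDK4/6 siRNA arrays and 11.24, 11.27 and 11.29 in control arrays. It rose by 0.30 (SE 0.053, limma adjusted p = 0.00310), while its dim second probe set, at a mean level of 5.50, gave 0.10 and did not pass. RIOK1, an atypical kinase that competes with CLNS1A for PRMT5 and also acts in assembly of the small ribosomal subunit, gave 9.70, 9.65 and 9.63 in CDK4/6 siRNA arrays, against 9.23, 9.31 and 9.18 in control arrays. It rose by 0.42 (SE 0.058, limma adjusted p = 0.000834) on its only probe set. COPRS, which recruits PRMT5 to histones, gave 9.98, 9.88 and 9.88 in CDK4/6 siRNA arrays and 9.66, 9.59 and 9.39 in control arrays. It rose by 0.37 (SE 0.077, limma adjusted p = 0.00723), and the call ended without variance moderation (adjusted p = 0.0592). No array of either group crossed into the other for any of the 3 adaptors.

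**Figure D1:**
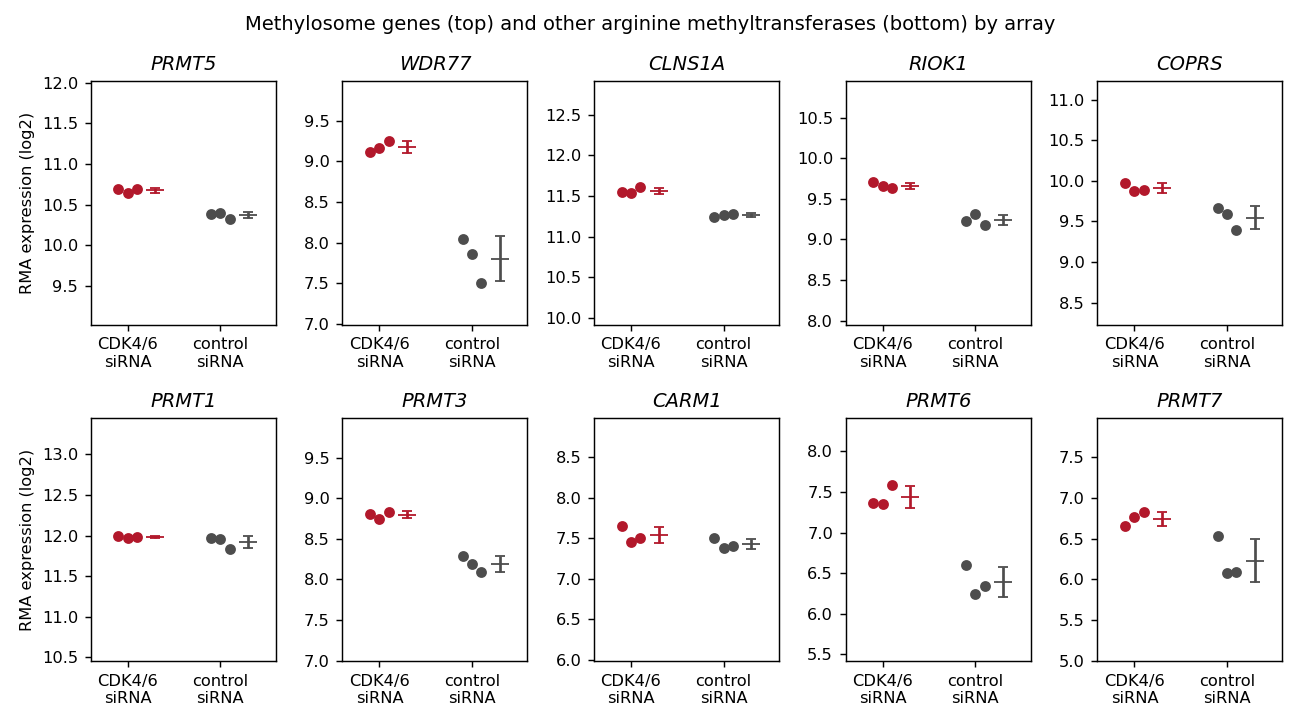
RMA expression (log2, y axes of equal span) of the 10 genes in each array, with CDK4/6 siRNA in red left of control siRNA in grey; points are arrays, and the bars beside them are mean ± SD of 3 arrays. The groups are apart for 8 genes and overlap for PRMT1 and CARM1, and WDR77 and PRMT6 show the widest gaps, with log2 fold changes of 1.38 and 1.04.

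The change of WDR77 was set against that of each other member within the arrays, as the difference of their log2 values. Relative to PRMT5, WDR77 was higher by 1.07 in CDK4/6 siRNA arrays than in control arrays, and the SD of the difference was 0.0727 in CDK4/6 siRNA arrays and 0.244 in control arrays. The same comparison gave 1.08 for CLNS1A, 1.01 for COPRS, 0.95 for RIOK1 and 0.33 for PRMT6. WDR77 was the member with the largest change and its rise was known when the genes were grouped, so its gain on each of the other 9 follows from that choice. The differences are given as a description of their size, with no test.

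Among the other methyltransferases, PRMT6, PRMT3 and PRMT7 were higher while PRMT1 and CARM1 did not pass the test. PRMT6, which makes asymmetric dimethylarginine on histone H3, gave 7.36, 7.35 and 7.59 in CDK4/6 siRNA arrays, against 6.60, 6.24 and 6.34 in control arrays. It was 2.06-fold higher, a log2 fold change of 1.04 (SE 0.102, limma adjusted p = 0.000181). PRMT3, a cytosolic enzyme that methylates the ribosomal protein RPS2, gave 8.81, 8.75 and 8.83 in CDK4/6 siRNA arrays and 8.28, 8.19 and 8.09 in control arrays. It rose by 0.61 (SE 0.065, limma adjusted p = 0.000263).

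PRMT7, which makes monomethylarginine, gave 6.65, 6.77 and 6.82 in CDK4/6 siRNA arrays and 6.53, 6.07 and 6.09 in control arrays. Control replicate 1 came close to the lowest CDK4/6 siRNA array. The log2 fold change was 0.52 (SE 0.118, limma adjusted p = 0.0109), and the call ended without control replicate 3 (0.44, adjusted p = 0.0524) and without variance moderation (adjusted p = 0.107). Each of PRMT6, PRMT3 and PRMT7 rests on 1 probe set.

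PRMT1, which makes most of the asymmetric dimethylarginine in cells, gave 12.00, 11.97 and 11.98 in CDK4/6 siRNA arrays and 11.97, 11.95 and 11.83 in control arrays. The groups overlapped, and the difference was 0.064 with a 95% interval of -0.069 to 0.20 (limma adjusted p = 0.503). CARM1, or PRMT4, a coactivator of nuclear receptors, gave 7.65, 7.46 and 7.50 in CDK4/6 siRNA arrays, against 7.50, 7.38 and 7.41 in control arrays. Its difference was 0.10 with a 95% interval of -0.051 to 0.26 (limma adjusted p = 0.325), and under spike-in scaling it passed at 0.21 (adjusted p = 0.0430). For both genes the interval leaves out a change as large as that of PRMT3.

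In all, limma called 8 of the 10 genes higher and 0 lower, also 0 lower at an unadjusted p under 0.05, against 14.0% and 12.9% of all genes, with a median log2 fold change of 0.39 beside -0.0011 over all genes. Of the 15 probe sets 11 were higher, against 8.86% of all probe sets, and the 4 that did not pass included the dim probe sets of PRMT1 and CLNS1A. Control arrays were more spread than CDK4/6 siRNA arrays in 8 of the 10 genes, beside 51.8% of all genes. Control replicate 3 was the lowest control array in 6 of the 10, beside 40.1% of all genes.

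**Figure D2:**
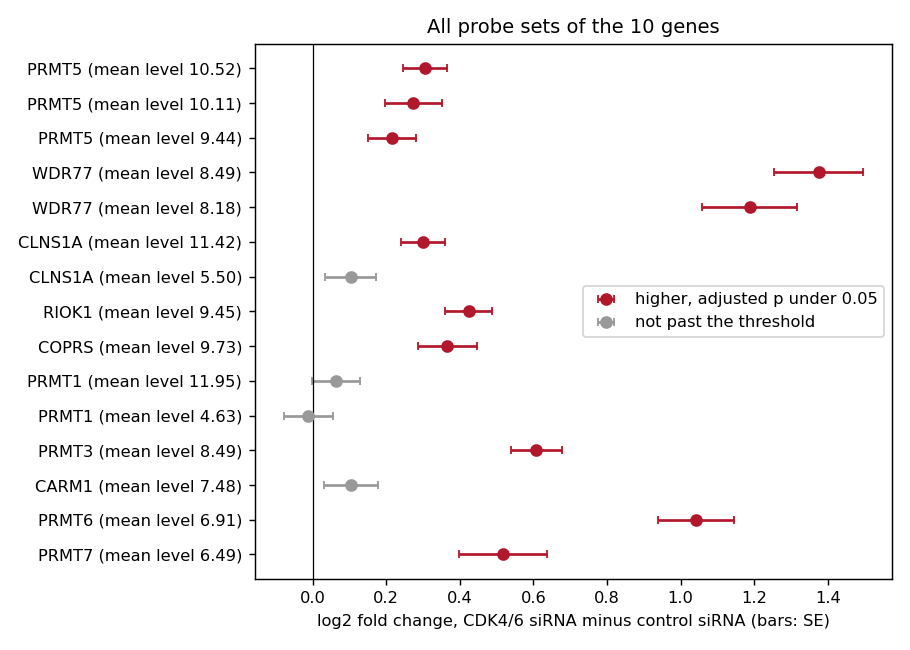
Log2 fold change, CDK4/6 siRNA minus control siRNA (x axis), of all 15 probe sets of the 10 genes, each row labelled with its mean log2 level; points are estimates, bars SE from limma over all probe sets, red past an adjusted p of 0.05. The 3 PRMT5 probe sets lie between 0.22 and 0.31 and the 2 WDR77 probe sets at 1.19 and 1.38.

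Of 5 further arginine methyltransferase genes measured, 1 was higher and 2 lower, with a median of -0.17. The shares over all genes were 14.0% higher and 12.9% lower, and with 5 genes nothing is read from the counts. PRMT2 was lower on its brightest probe set, at 8.87, 8.85 and 8.96 in CDK4/6 siRNA arrays against 9.17, 9.29 and 9.19 in control arrays, a fall of 0.32 (SE 0.060, limma adjusted p = 0.00427). Its probe sets disagreed: one at a mean level of 6.63 fell by 0.79, and one at 8.73 gave 0.015 and did not pass. METTL23, a histone arginine methyltransferase of another family, fell by 0.28. PRMT8, a brain enzyme of plasma membranes, was dim at a mean level of 5.29, and its value of 0.19 (adjusted p = 0.0280) lost the call in 4 of the 6 fits with 1 array left out. PRMT9 gave -0.17 and did not pass. Under spike-in scaling 2 were higher and 1 lower, beside 4731 and 1320 of all genes.

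Sm proteins and the SMN complex act downstream of the methylosome in making spliceosomal particles. SMN1 and SMN2 themselves had no gene value and are not counted. Of 19 genes measured, 13 rose and 1 fell, with a median of 0.23, against 14.0% higher and 12.9% lower among all genes. The list was chosen with earlier results of these data known, so its counts are a description and nothing is read from them. The number that rose was 9 with the replicate number as a block, beside 2481 of all genes. It was 8 at an adjusted p under 0.01 (1803 of all genes). On plain-name probe sets (those without a suffix for shared probes), where GEMIN4 and LSM4 have no value, it was also 8 (2029 of all genes). Without CDK4/6 siRNA replicate 3 it was 8 (2209 of all genes), and without control replicate 3 also 8 (2221). GEMIN5, the subunit that recognises small nuclear RNAs, gave 9.90, 9.88 and 9.89 in CDK4/6 siRNA arrays and 9.14, 9.10 and 8.93 in control arrays. It rose by 0.83 (SE 0.067, limma adjusted p = 8.97e-05). LSM10, part of the particle that processes histone mRNA, rose by 0.82, GEMIN4 by 0.67 and the helicase DDX20 by 0.62. SNRPD3, SNRPB, SNRPD1, LSM4 and COIL were looked at as known carriers of symmetric dimethylarginine, after their values were seen. COIL did not pass, at -0.080 (limma adjusted p = 0.338). SNRPD3 rose by 0.37 (limma adjusted p = 0.00336) and kept the call under the 19 alternatives. SNRPB rose by 0.25 (adjusted p = 0.0257), SNRPD1 by 0.23 (adjusted p = 0.0273) and LSM4 by 0.21 (adjusted p = 0.0494), all closer to the threshold. With 1 array left out, SNRPB lost the call in 3 of the 6 fits, SNRPD1 in 4 and LSM4 in 6, and SNRPD1 and LSM4 lost it with the block. GEMIN8, the one gene of the list that fell and named for that, gave -0.22 (adjusted p = 0.0198), lost the call in 3 of the 6 fits with 1 array left out, and turned to 0.057 on its plain-name probe set.

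**Figure D3:**
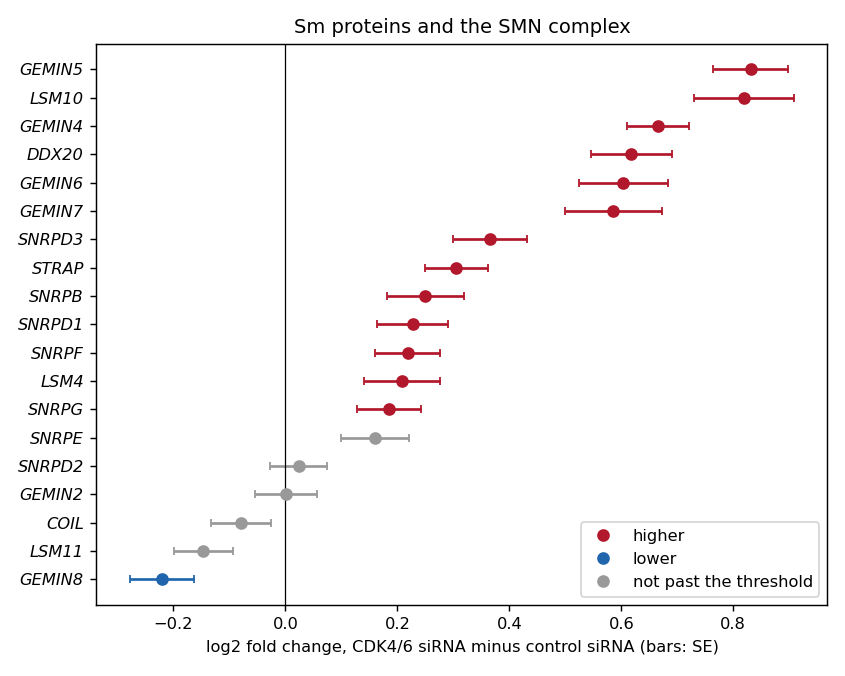
Log2 fold change, CDK4/6 siRNA minus control siRNA (x axis), of the 19 measured Sm protein and SMN complex genes; points are estimates with SE bars, red higher, blue lower and grey not past an adjusted p of 0.05. SMN complex subunits GEMIN5, GEMIN4 and DDX20 and the protein LSM10 lie furthest right, between 0.62 and 0.83, and GEMIN8 at -0.22 is the one gene that fell.

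Of 18 other known substrates of arginine methyltransferases, 8 rose and 1 fell, with a median of 0.15. Among all genes 14.0% were higher and 12.9% lower. This list too was chosen with earlier results known, and nothing is read from its counts. GAR1, a snoRNP protein with glycine- and arginine-rich ends, rose by 0.57, the stress granule protein G3BP1 by 0.47, TAF15 by 0.58 and the mRNA export factor ALYREF by 0.52. For TAF15 the next 2 probe sets, at mean levels of 6.66 and 6.17, fell by 0.36 and 0.31. When all probe sets of each gene were averaged, 4 substrates rose, beside 2558 of all genes. TAF15 then gave -0.037 and G3BP1 lost the call.

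The list of methyl donor genes covers its supply, its use and its by-products, such as methylthioadenosine, which inhibits PRMT5, and relatives of these enzymes. Of 17 measured, 7 rose and 3 fell, with a median of 0.17, against 14.0% higher and 12.9% lower among all genes. Earlier results were known when the list was chosen, and nothing is read from these counts. MTAP, which breaks methylthioadenosine down, gave 11.22, 11.24 and 11.29 in CDK4/6 siRNA arrays, against 10.74, 10.81 and 10.62 in control arrays. It rose by 0.53 (SE 0.063, limma adjusted p = 0.000450), and 3 further probe sets rose by 0.39 to 0.55. MTRR, which keeps methionine synthase active, rose by 0.78 and spermidine synthase SRM, whose reaction releases methylthioadenosine, by 0.86. MAT2A, which makes S-adenosylmethionine and was named for its role after its value was seen, rose by 0.47. Spermine synthase SMS, whose reaction also releases methylthioadenosine, fell by 0.27 (limma adjusted p = 0.0304). MAT2B, at 0.12, and MAT1A, at -0.099, did not pass. SMS, MAT2B and MAT1A were also named for their roles after their values were seen. AHCYL1, a relative of the S-adenosylhomocysteine hydrolase that binds inositol trisphosphate receptors, fell by 0.40. On plain-name probe sets, where MTRR, MAT2A and ADK have no value, 3 genes of the list rose, beside 2029 of all genes.

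Counts for partners and readers of arginine methylation are set beside 14.0% higher and 12.9% lower among all genes, and with so few genes nothing is read from them. Of 9 partners and regulators 1 rose and 3 fell, with a median of -0.10. BTG1, which binds PRMT1, gave 10.30, 10.29 and 10.29 in CDK4/6 siRNA arrays and 10.84, 10.89 and 10.90 in control arrays. It fell by 0.58 (SE 0.052, limma adjusted p = 0.000120), and its next probe set, at a mean level of 9.31, fell by 0.55. The plain-name probe set of BTG1, dim at 3.48, gave 0.15 and did not pass. The coactivator NCOA1, which works with CARM1, fell by 0.36 and ERH rose by 0.33, while the probe sets of CHTOP went both ways, -0.18 on the brightest, a call lost in 5 of the 6 fits with 1 array left out and with the block, and 0.31 on the next. Of 12 methylarginine readers and histone arginine modifiers 2 rose and 2 fell, with a median of -0.078. JMJD6, a hydroxylase also reported to remove methyl groups from arginine, fell by 0.50, and the deiminase PADI3 rose by 0.45. The Tudor domain protein TDRKH gave -0.40 (adjusted p = 0.0375) on a probe set at a mean level of 5.86, and its other 2 probe sets gave 0.0026 and 0.011. It lost the call over all probe sets (adjusted p = 0.0516), with the replicate number as a block and in 3 of the 6 fits with 1 array left out. TDRD9, dim at 3.50, gave 0.18 with an adjusted p of 0.0440 and lost the call in 5 of those 6 fits and with the block.

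**Figure D4:**
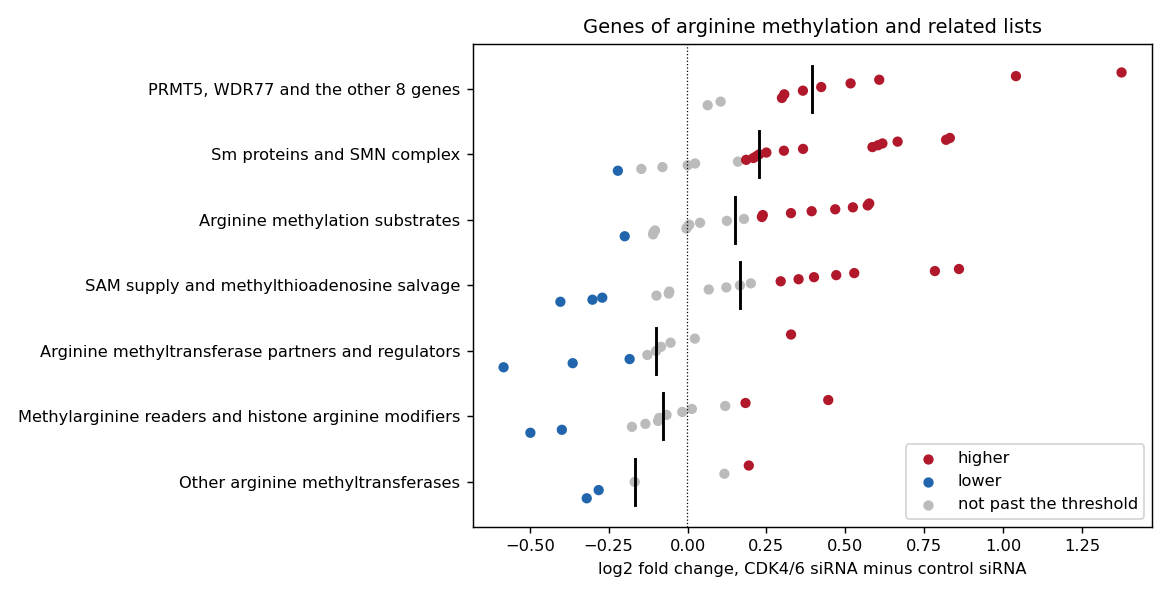
Log2 fold change, CDK4/6 siRNA minus control siRNA (x axis), of each measured gene in the group and in 6 related lists (rows); points are genes, red higher, blue lower and grey not past an adjusted p of 0.05, black bars list medians, the dotted line the median of all genes. Medians run from 0.39 for the 10 genes to -0.17 for the other arginine methyltransferases, a list with only 5 measured genes.

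By the distance between mean-centred log2 values over the 6 arrays, the 5 genes most like WDR77 were CTPS1, GPATCH4, ZBED2, TIGAR and LYRM7, at distances of 0.11 to 0.25. Their log2 fold changes ran from 1.20 to 1.45, and their Pearson r with WDR77 over the 6 arrays from 0.992 to 0.998, as a description, since both groups enter it. The 5 most like PRMT5 were MSX1, RABAC1, ADK, RAMP1 and TRIM44, at distances of 0.037 to 0.048 and with changes of 0.28 to 0.33. ADK, adenosine kinase, is also in the list of methyl donor genes.

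ATP5PB, across the shared upstream stretch from WDR77, gave 13.13, 13.21 and 13.18 in CDK4/6 siRNA arrays and 12.92, 12.88 and 12.85 in control arrays. It rose by 0.29 (SE 0.054, limma adjusted p = 0.00436), while WDR77 rose by 1.38. OVGP1, on the other side of WDR77, gave -0.012, and RBM23, beside PRMT5, gave -0.084, and neither passed. Of the 20 genes next to the 10 members in RefSeq order, 17 were measured, of which 3 rose and 2 fell, shares near the 14.0% and 12.9% of all genes.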

How the data were processed

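Values were deposited as log2 expression, and per the submitters' processing notes the authors used RMA, which corrects background, equalises the distributions of the arrays and summarises probes into probe sets. Its version is not given in the sources used here. RMA hides a change in total RNA per cell and compresses changes of dim probe sets. No detection calls were used, and 6 arrays limit the precision.

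Of 54675 probe sets, 62 were array controls, 41097 had 1 gene symbol, 1801 several and 11777 none. Only probe sets with 1 gene symbol could stand for a gene. Symbols were checked by gene ID in RefSeq (GRCh38.p14), which found 41037 and updated 0. That table also gave neighbours, while upstream sequences came from a separate set of RefSeq promoters, and all 10 members matched. A linear model with the group alone was fitted in limma 3.58.1 (lmFit, eBayes; R 4.3.3), and p-values were adjusted by Benjamini-Hochberg over 19775 genes, or over all probe sets where stated. The fit was tested on simulated data. Dim genes were kept.

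The members, the 6 related lists and the alternatives were chosen with earlier results of these data known. Named were the members, the 4 genes of lowest adjusted p in each list, the 5 genes most like WDR77 and PRMT5, and the nearest gene on each side of these. Genes named for a role or as the only one of a count after their values were seen are marked so. HAUS4, beside PRMT5, was not analysed here. Figures were drawn with matplotlib 3.10.9.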

Additional observations from a re-analysis of the deposited data

How the results depend on the processing

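Over the alternatives run, the members called higher numbered 5 to 9 and those called lower 0. For all genes these counts ran from 1803 to 4731 and from 1320 to 2859. The 9 came under spike-in scaling, where 4731 of all genes were higher. The 5 came when only plain-name probe sets, those without a suffix for shared probes, were used, where WDR77, CARM1 and RIOK1 have no value, CLNS1A gave 0.10 and PRMT1 turned to -0.012. WDR77 stayed between 1.23 and 1.49, PRMT5 between 0.27 and 0.41 and PRMT6 between 0.96 and 1.15, past the threshold wherever they were fitted. Without variance moderation COPRS (adjusted p = 0.0592) and PRMT7 lost their calls, and PRMT7 also at a threshold of 0.01.

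Under spike-in scaling, 4731 genes were higher and 1320 lower, and the lower counts became 0 for Sm and SMN genes and for substrates, 1 for readers and modifiers, 1 for methyl donor genes and 1 for the other methyltransferases, of which 2 were higher. At the 0.01 threshold 1803 genes were higher and 1523 lower, Sm and SMN genes had 8 higher and 0 lower, substrates 0 lower, readers and modifiers 1 and 1, and the other methyltransferases 0 higher. Plain-name probe sets gave Sm and SMN genes 8 higher and 0 lower and methyl donor genes 3 higher. Readers and modifiers then had 1 higher, and partners and the other methyltransferases 1 lower each. Over all genes 2029 were then higher and 1798 lower. GEMIN4, LSM4, MTRR, MAT2A and ADK had no value there, so these counts cover fewer genes. The mean of probe sets gave substrates 4 higher and 0 lower and the other methyltransferases 0 higher, with 2558 higher and 2184 lower over all genes. Sm and SMN genes had 2 lower with quantile normalisation, with the dimmest 40% left out and without variance moderation. All genes had 2710, 2770 and 1910 lower there. Readers and modifiers had 1 higher with the dimmest 40% left out, with a trend and without moderation, the last with 1 lower. All genes had 3011, 3096 and 2126 higher there. Substrates had 3 lower with a trend and 2 without moderation, beside 2859 and 1910 of all genes. The other methyltransferases had 0 higher with a trend and with the dimmest 40% left out.

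With the replicate number as a block, 2481 genes were higher and 2257 lower, and 8 members were again higher. The other methyltransferases then had 0 higher, substrates 0 lower, and readers and modifiers 1 and 1. Deviations of same-numbered arrays correlated at -0.010, -0.12 and -0.0066, and those of differently numbered arrays at -0.070 to 0.091. With 3 arrays per group these values cannot tell whether the same number marks a shared culture or day.

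Of other named genes, plain-name probe sets turned BTG1 to 0.15, GEMIN8 to 0.057 and PRMT2 to 0.015, the BTG1 one dim at 3.48. The mean of probe sets turned TAF15 to -0.037. Spike-in scaling turned RBM23 to 0.024 and OVGP1 to 0.096, and median centring OVGP1 to 0.0043.

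With each array left out in turn, the counts higher and lower ran from 2209 to 2518 and 1998 to 2208 for all genes, 7 to 8 and 0 for the members, 8 to 12 and 0 to 1 for Sm and SMN genes, 7 to 8 and 0 to 1 for substrates, 1 to 2 each for readers and modifiers, 1 and 2 to 3 for partners, 7 and 2 to 3 for methyl donor genes, and 0 to 1 and 2 for the other methyltransferases. WDR77 minus PRMT5 ran from 0.94 to 1.18, the dim PRMT1 probe set from -0.050 to 0.037 and OVGP1 from -0.091 to 0.062. The cause of these differences was not tested.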
